A study of Mus musculus with 6 samples.

Results

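The 37 aminoacyl-tRNA synthetase genes of the mouse were examined for CUT&Tag peaks of Arid3a in vascular smooth muscle cells, which lie in the wall of blood vessels and contract it. They were taken by symbol from 21887 protein-coding genes on the 21 chromosomes that carried peaks (GRCm38.p6, the assembly of mm10). The group was proposed with results of these data known, since the synthetase gene Lars2 led the gene-end peaks, so how many members had a peak and how high it stood are given as a description with no test. Arid3a is a DNA-binding protein with an AT-rich interaction domain, which acts on transcription. CUT&Tag directs a transposase to an antibody-bound protein and sequences the DNA cut around it. Primary mouse smooth muscle cells, bought commercially, were transfected for 24 h with a negative control siRNA (3 libraries, NC-labelled 1 to 3) or with an siRNA against Arid3a (3 libraries, siRNA-labelled 1 to 3, each with its own siRNA number, so that no siRNA had a replicate). Each assay took 10000 cells. The labels give an angiotensin II exposure of 36 h, as a model of aortic aneurysm, alike for every library of both groups. They set no unexposed library apart. They do not say whether a group holds independent cultures, so p-values measure the spread between these libraries only.

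Aminoacyl-tRNA synthetases join each amino acid to its tRNA and thereby set the genetic code in protein synthesis. The cytosol and the mitochondrion are served mostly by separate nuclear genes, the mitochondrial ones marked by a final 2 in the symbol. Part of the cytosolic enzymes form the multi-synthetase complex. Many cytosolic synthetase genes are known targets of ATF4, the transcription factor of the amino acid response, which binds elements of the type TGATGNAA. The members fell into 8 genes of the multi-synthetase complex (Dars, Eprs, Iars, Kars, Lars, Mars1, Qars, Rars), 12 other cytosolic genes and 17 mitochondrial genes. Kars and Gars each make both a cytosolic and a mitochondrial enzyme and are counted as cytosolic here.

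The lists held 43834 to 51682 peaks, and the background solved from them was 0.621 to 0.673 fragments per base in the NC-labelled against 0.475 to 0.538 in the siRNA-labelled libraries. The group is therefore confounded with coverage. Every list names its peaks after a library of the opposite group; directions here follow the sample labels and would be opposite under the peak names. An antibody-free control was not analysed here, so occupancy by Arid3a itself is not established. Of 8 smooth muscle markers, 5 or 6 had a gene-end peak in each library (Myh11 and Des had none), against 0 to 2 of 5 endothelial, 1 or 2 of 4 macrophage, 2 of 4 fibroblast and 1 or 2 of 5 cardiac and skeletal muscle markers. A peak is not expression.

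Promoter sequences from RefSeq (GRCm38.p6) were available for 27 of the 37 genes. A selection of them is shown first, from 150 bases before to 20 bases after the listed start, 5′ to 3′. The first set holds the 5 members with a match to the amino acid response element, and capitals mark TGATGNAA on either strand.
Aars (chr8:111033692-111033861, + strand): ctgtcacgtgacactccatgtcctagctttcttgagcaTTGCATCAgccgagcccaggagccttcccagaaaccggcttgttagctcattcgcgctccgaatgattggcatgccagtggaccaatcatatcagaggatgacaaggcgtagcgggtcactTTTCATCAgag
Gars (chr6:55037851-55038020, + strand): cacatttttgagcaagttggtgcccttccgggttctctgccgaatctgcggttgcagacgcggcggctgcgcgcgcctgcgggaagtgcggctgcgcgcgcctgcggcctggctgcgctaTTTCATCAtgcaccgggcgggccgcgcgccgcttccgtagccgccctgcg
Iars (chr13:49681980-49682149, + strand): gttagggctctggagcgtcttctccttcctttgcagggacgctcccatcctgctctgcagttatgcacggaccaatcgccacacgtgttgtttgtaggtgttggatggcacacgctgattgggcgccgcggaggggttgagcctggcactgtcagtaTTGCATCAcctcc
Tars (chr15:11399639-11399808, - strand): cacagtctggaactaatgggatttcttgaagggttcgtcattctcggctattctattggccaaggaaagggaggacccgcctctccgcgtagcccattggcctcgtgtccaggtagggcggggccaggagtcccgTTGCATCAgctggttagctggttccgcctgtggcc
Yars (chr4:129189753-129189922, + strand): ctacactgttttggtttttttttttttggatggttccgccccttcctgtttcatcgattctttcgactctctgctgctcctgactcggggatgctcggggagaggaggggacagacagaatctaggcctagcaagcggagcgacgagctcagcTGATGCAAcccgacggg
These code for the alanyl-, glycyl-, isoleucyl-, threonyl- and tyrosyl-tRNA synthetases of the cytosol. The matches began at bases -112 and 10 in Aars, -30 in Gars, 8 in Iars, -15 in Tars and 4 in Yars, counted from the start with no base 0. The second set holds the members with the highest fold at the start, Fars2 and Wars2, and Lars2, and capitals mark GGGCGG on either strand, the core that SP factors bind.
Fars2 (chr13:36117493-36117662, + strand): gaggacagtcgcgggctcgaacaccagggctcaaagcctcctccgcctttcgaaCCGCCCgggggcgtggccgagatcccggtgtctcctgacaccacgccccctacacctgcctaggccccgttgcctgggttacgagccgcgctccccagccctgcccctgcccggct
Wars2 (chr3:99140940-99141109, + strand): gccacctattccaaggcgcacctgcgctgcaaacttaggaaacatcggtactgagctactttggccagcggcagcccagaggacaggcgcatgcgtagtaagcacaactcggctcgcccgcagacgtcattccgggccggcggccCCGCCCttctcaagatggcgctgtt
Lars2 (chr9:123366777-123366946, + strand): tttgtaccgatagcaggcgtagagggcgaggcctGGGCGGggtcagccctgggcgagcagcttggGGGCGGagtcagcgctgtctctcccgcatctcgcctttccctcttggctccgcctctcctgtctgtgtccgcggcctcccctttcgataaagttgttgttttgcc
All 3 are mitochondrial synthetase genes, and none of the 3 promoters had a match to TGATGNAA.

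Nearly all synthetase genes carried a peak at a gene end, taken as 1000 bp either side of each end of the gene record. In NC-labelled libraries 1 to 3 a gene-end peak was found at 35, 35 and 35 of the 37 members, and in siRNA-labelled libraries 1 to 3 at 34, 35 and 35. All 6 libraries had one at 34 members (91.9%), against 44.0% of all protein-coding genes. By role these were 7 of 8 genes of the multi-synthetase complex, 11 of 12 other cytosolic genes and 16 of 17 mitochondrial genes. Counting a peak at either end, no member had a peak in every library of 1 group and none of the other, which was found at 0.169% of all genes for NC-labelled only and 0.0914% for siRNA-labelled only. Wars, the cytosolic tryptophanyl-tRNA synthetase gene, was the member with a peak in part of the libraries (5 of 6). Its fold over the local background was 6.05, 6.18 and 5.67 in the NC-labelled libraries and 8.04 and 6.57 in siRNA-labelled libraries 2 and 3, and siRNA-labelled library 1, the list with the fewest peaks and the lowest background, had no peak at its right end. Aars2 and Eprs had no gene-end peak in any library.

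Both of these exceptions had a peak at a start site inside the gene record. The listed start of Eprs, the gene of the joined glutamyl- and prolyl-tRNA synthetase (chromosome 1, 185361417 to 185428360), lies 1627 bp inside the record. Its peak had a fold of 8.86, 11.6 and 9.63 in NC-labelled against 11.7, 11.8 and 11.2 in siRNA-labelled libraries. The first listed start of Aars2, the mitochondrial alanyl-tRNA synthetase gene (chromosome 17, 45503515 to 45520843), lies 3317 bp inside, with folds of 12.4, 11.9 and 11.4 against 12.5, 9.82 and 9.18. Measured at the RefSeq start sites, all 27 members with a listed start had a peak within 1000 bp in all 6 libraries, against 46.0% of 17492 genes. The 10 members without a listed start, such as Cars, Lars and Pars2, had their leading peak at the left end (Hars2, Pars2, Vars) or at the right end (the others).

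The summits lay close to the start. Over 28 start sites of the 27 members the median distance from start to summit was 83.5 to 143 bp per library, and 26 to 28 of the 28 lay within 300 bp. Over all 9485 start sites with a peak in 6 libraries the median was 151 to 173 bp. Nars2, the mitochondrial asparaginyl-tRNA synthetase gene, had its summit 63 to 69 bp after the start in the 6 libraries, and Aars 73 to 77 bp after it, so both positions moved by few bases between libraries. The summits of Mars1, the methionyl-tRNA synthetase gene of the complex, were spread from 587 bp before to 294 bp after the start. The peaks that held them were up to 1313 bp wide. In siRNA-labelled library 2 separate peaks were listed there. The summit taken, 512 bp before the start, was that of a peak 235 bp wide, and another peak had its summit 105 bp after the start. The plot of summit positions shows how Mars1 differs from the other members in this spread.

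**Figure D1:**
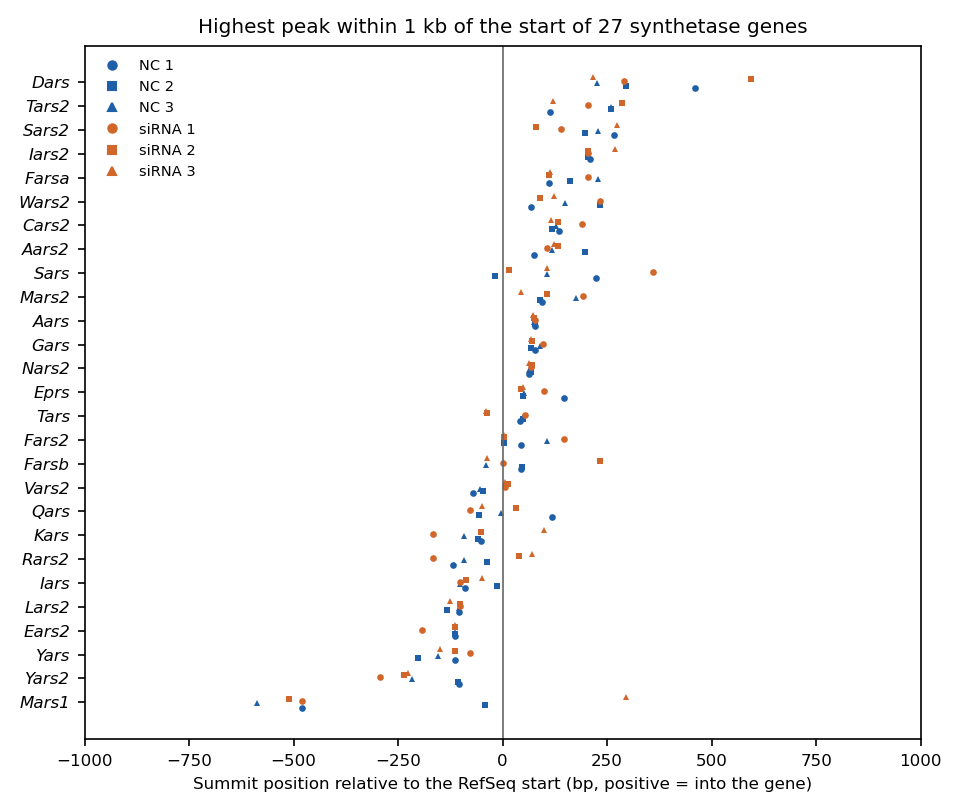
Position of the highest peak's summit relative to the RefSeq start (bp, positive into the gene) for 27 synthetase genes. Each point is 1 library (blue NC-labelled, orange siRNA-labelled, shape by replicate number). Summits of most genes lie within 300 bp of the start in every library, and those of Mars1 are the most spread.

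Of the 27 members with a known strand, 24 had a peak at the start end of the gene record in all 6 libraries (42.7% of all genes with a strand) and 4 had one at the far end in all 6 (4.99% of all genes). The 4 were Lars2, Aars, Qars and Tars2. Kars, Sars and Gars had a far-end peak in 4, 2 and 1 libraries. The leading peak of Tars2, the mitochondrial threonyl-tRNA synthetase gene, was at its far end, where the start of Ecm1 lies 98 bp away, with folds of 6.34, 6.65 and 6.93 against 6.49, 7.20 and 8.36. At its own start, 1388 bp inside the record, the fold was 5.62, 5.14 and 4.30 against 6.04, 6.17 and 4.94, lower than at the far end in each library. At the outer end of the record on the start side a separate low peak (chromosome 3, 95756780 to 95757241) was listed in the 3 NC-labelled libraries only, with folds of 3.93, 3.81 and 3.26 and 28, 22 and 19 fragments. It was in the lower part of those lists (top 57.7 to 79.9%) and was not fitted, since fits took regions with a peak in every library.

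Lars2, the mitochondrial leucyl-tRNA synthetase gene (chromosome 9, 123366927 to 123462675), had the highest peak of the group, and that peak lay at the far end and not at the start. By −log10 q it was the second-highest peak of the whole list in every library, at 942, 972 and 916 in NC-labelled against 757, 725 and 778 in siRNA-labelled libraries. The fold was 37.5, 39.3 and 38.0 against 38.4, 42.6 and 40.8. The summit held 807, 819 and 781 fragments against 642, 590 and 644, not scaled for coverage. In all 6 lists the summit fell at base 123462020 or 123462021, 654 or 655 bp before the end of the gene, and the right edge of the peak was at base 123462193 in each. The peak was 396 to 403 bp wide. Its local background was 19.6 to 20.5 fragments in NC-labelled against 12.9 to 15.7 in siRNA-labelled libraries, far above the general background of the lists. Whether the interval holds a repeat or another stretch prone to excess signal was not tested, as its sequence was not used here, and no antibody-free library was set beside it. At the start of Lars2, within the promoter printed above, the summit held 30, 30 and 27 against 25, 21 and 30 fragments, with folds of 8.70, 8.53 and 7.76 against 8.79, 7.61 and 9.31. That start peak was 607 to 894 bp wide and ranked in the top 20.6 to 33.3% of the lists. The plot of both ends shows the far-end peak higher and narrower than the start peak in every library.

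**Figure D2:**
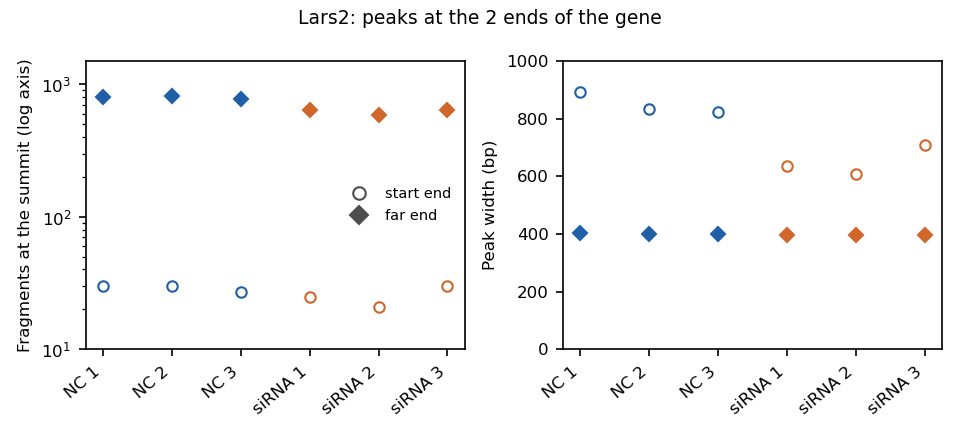
Fragments at the summit (left, log axis) and peak width in bp (right) for the start end (open circles) and the far end (filled diamonds) of Lars2, 1 point per library (blue NC-labelled, orange siRNA-labelled). The far-end peak holds 590 to 819 fragments and is 396 to 403 bp wide, and the start peak holds 21 to 30 and is 607 to 894 bp wide.

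By the lowest place of their −log10 q in any list, Fars2 and Wars2 had the next-highest leading gene-end peaks, both at the start. For Fars2, the mitochondrial phenylalanyl-tRNA synthetase gene (chromosome 13, peak region 36117311 to 36118060), the fold was 15.3, 15.6 and 15.6 in NC-labelled against 17.0, 16.9 and 16.5 in siRNA-labelled libraries. The −log10 q was 79.6, 85.1 and 71.1 against 68.2, 76.8 and 75.0, in the top 1.71 to 2.58% of each list. For Wars2, the mitochondrial tryptophanyl-tRNA synthetase gene (chromosome 3, 99140820 to 99141723), the fold was 18.1, 16.6 and 16.8 against 14.5, 17.8 and 16.2, and −log10 q 62.8, 55.1 and 52.2 against 37.4, 51.7 and 42.6. Folds of Wars2 overlapped between the groups, while those of Fars2 were higher in each siRNA-labelled library. How many of all regions separate in fold was not counted, so the split at Fars2 has no baseline. In the fit of summit fragments the centred values of Fars2 overlapped (log2 difference -0.12, SE 0.12; limma adjusted p = 0.77). The fold sets the summit against the background of its own library, with a pseudocount of 1 on both, and it is the authors' value. With that pseudocount it is not free of coverage where counts are low.

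Qars and Lars led the genes of the multi-synthetase complex. Qars, the glutaminyl-tRNA synthetase gene (chromosome 9, 108507630 to 108508341), had folds of 10.4, 10.8 and 11.2 against 10.4, 11.9 and 12 and −log10 q of 42.3, 43.4 and 45.0 against 31.7, 40.1 and 45.7. Lars, the cytosolic leucyl-tRNA synthetase gene, which also serves as a leucine sensor of mTORC1 (chromosome 18, 42261855 to 42262523), had folds of 12, 12.2 and 12.1 against 12.2, 11.8 and 11.9, the narrowest spread of fold of the group. Its −log10 q was 32.9, 32.5 and 32.4 against 27.8, 29.0 and 31.9. Farsb, the beta subunit gene of cytosolic phenylalanyl-tRNA synthetase (chromosome 1, 78488424 to 78489215), had folds of 12.9, 13.0 and 12.2 against 11.0, 13.0 and 11.3, with −log10 q of 40.7, 38.9 and 38.5 against 26.9, 37.9 and 27.0.

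By the same measure the lowest leading peaks were those of Sars, Gars, Dars and Pars2, while by median fold the lowest of the members with a peak in all 6 libraries was Rars, the arginyl-tRNA synthetase gene of the complex (6.39, from 5.16 to 7.25). Sars, the cytosolic seryl-tRNA synthetase gene (chromosome 3, 108444581 to 108445413), had folds of 8.86, 6.55 and 5.43 against 4.37, 7.06 and 8.76 and −log10 q of 17.6, 11.2 and 6.99 against 3.82, 10.2 and 15.8. Its place ran from the top 27.7% to the top 80.5% of the lists, the widest range of the members with a peak in all 6. Gars, the glycyl-tRNA synthetase gene (chromosome 6, 55037679 to 55038377), had folds of 6.92, 6.74 and 6.02 against 4.63, 6.59 and 7.52, with −log10 q of 13.5, 13.2 and 9.79 against 5.26, 10.7 and 15.0. For Sars and Gars siRNA-labelled library 1 was the lowest. Dars, the aspartyl-tRNA synthetase gene of the complex (chromosome 1, 128416625 to 128417763), had folds of 9.14, 6.76 and 7.06 against 7.00, 6.75 and 6.79. Its −log10 q was 15.5, 9.52 and 9.96 against 8.30, 8.28 and 9.09. Pars2, the mitochondrial prolyl-tRNA synthetase gene (chromosome 4, 106650885 to 106651646), had folds of 7.30, 6.92 and 7.17 against 6.30, 6.20 and 6.30, higher in each NC-labelled library, and −log10 q of 11.6, 11.0 and 11.4 against 8.25, 8.13 and 8.33. Its centred summit fragments overlapped between the groups (log2 difference 0.04, SE 0.22; limma adjusted p = 0.97). For the split in fold the share of all regions was not counted. The summit of Pars2 held 19 fragments in each NC-labelled and 15 in each siRNA-labelled library, so coverage enters its fold through the pseudocount.

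Over the 34 members with a leading peak in all 6 libraries the median fold was 8.77 to 10.0 per library, against 7.97 to 8.83 for the leading gene-end peak of all 9638 genes with a peak in every library. The member median was lower in siRNA-labelled library 3 (8.78 against 8.83) and higher in the other libraries. The choice of peak also differed: members kept the same region in every library, while all genes took the highest −log10 q in each library. The median fold per library was 9.24 to 10.1 for the 16 mitochondrial genes, 7.92 to 9.14 for the 7 genes of the complex and 8.41 to 11.6 for the 11 other cytosolic genes, and the mitochondrial median was above that of the complex in all 6 libraries, which was not tested. In the plot of folds by gene Lars2 stands apart and the folds of the other genes plotted run from 4.37 at Sars to 18.1 at Wars2.

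**Figure D3:**
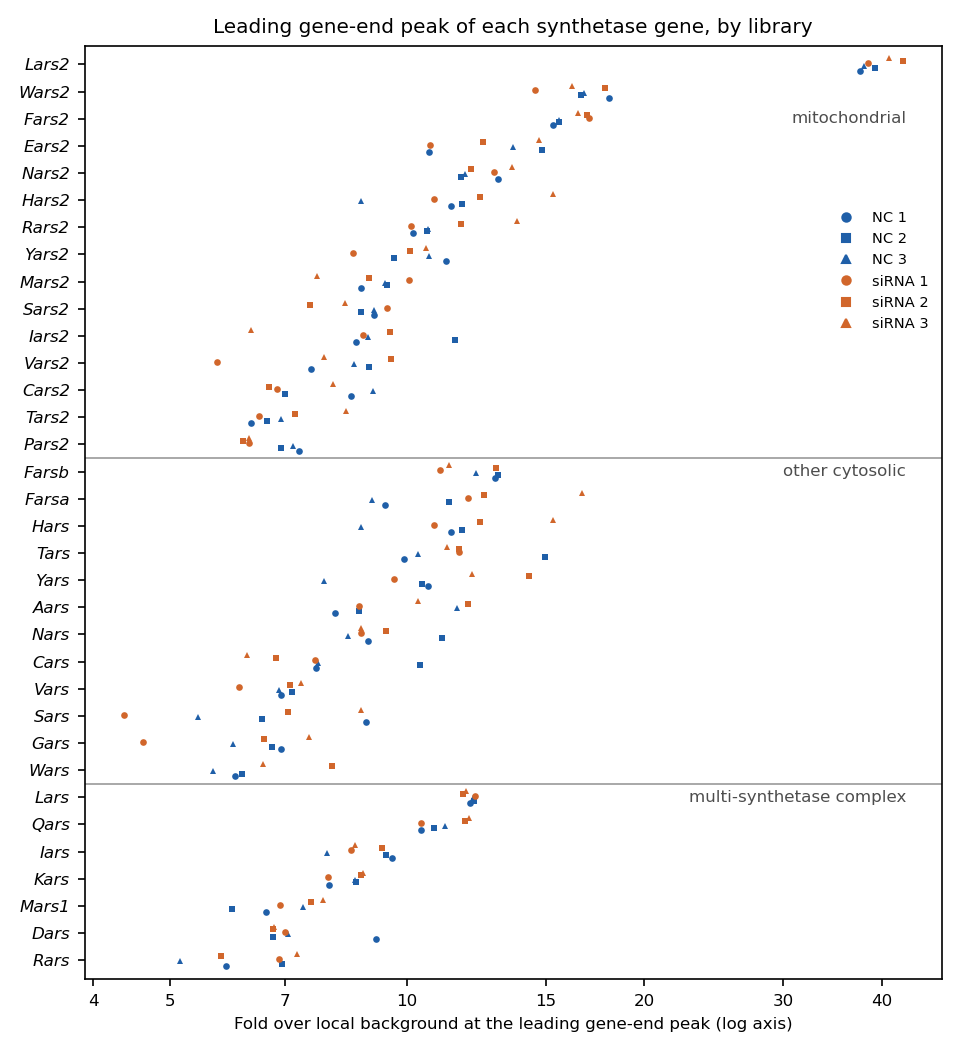
Fold over the local background at the leading gene-end peak (log axis) of 34 synthetase genes with a gene-end peak, grouped by role, 1 point per library (blue NC-labelled, orange siRNA-labelled, shape by replicate number). Lars2 lies at 37.5 to 42.6, Wars2 and Fars2 at 14.5 to 18.1, and the blue and orange points of most genes are mixed.

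Several members shared their peak with a neighbour. For 14 members an end of another protein-coding gene lay within 1000 bp of the end with the leading peak. Hars and Hars2, the cytosolic and mitochondrial histidyl-tRNA synthetase genes, have ends 3 bp apart on chromosome 18 and shared 1 peak region (36782241 to 36783714). The start of Ears2 lies 1 bp from that of Ubfd1, that of Kars 5 bp from Terf2ip, a telomere protein gene, that of Rars2 6 bp from Orc3, a replication origin gene, and that of Iars2 9 bp from Bpnt1. Fars2 lies 71 bp from Lyrm4, which serves iron-sulphur cluster assembly, and Sars2 136 bp from Mrps12, a mitochondrial ribosomal protein gene. Of members with a strand, 8 of 27 (29.6%) had such a neighbour at the start, against 26.8% of all genes with a strand and a gene-end peak in 6 libraries. A peak between a pair of starts cannot be given to either gene.

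The promoters of the members were of mixed composition, with a median of 57.3% G and C (48.3 to 71.7) and 17.5 CG pairs (7 to 36) per 300 bases, against 56.3% and 13 over the promoters of all genes. Of 8 short motifs searched on both strands in the 300 bases, ATTAAA, the AT-rich core that ARID3A is known to bind, was found in 5 of 27 members (18.5%; Dars, Iars2, Mars1, Tars2 and Vars2), against 13.7% of 17492 genes. TGATGNAA was found in the 5 members printed above (18.5%), against 4.13% of all genes. These were 5 of 13 cytosolic and 0 of 14 mitochondrial members. CACGTG, the E-box that MYC binds, was found in Aars, Ears2, Farsb, Iars and Tars (18.5% against 8.91%). CCGGAA, the ETS core, was found in 12 (44.4% against 20.9%), GGGCGG in 19 (70.4% against 49.2%), CCAAT in 13 (48.1% against 42.3%) and TATAAA in 3 (11.1% against 14.8%). The NRF1 motif was searched only as an exact string of 10 letters, longer than the other motifs (5 to 8 letters). It was found in none of the 27 members and in 1.47% of all genes. Near matches were not counted, so this result does not show that NRF1-type sites are absent from these promoters. The motifs did not overlap each other in the members, apart from CCAAT and ATTAAA in Mars1. A match describes letters and is not a binding site.

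For the 5 genes with TGATGNAA the distance from match to summit is given as a description. Matches were searched only in the promoter window, and the summits of members lay close to the start. A short distance was therefore largely set in advance and cannot show that a peak sits on the element. Whether summits lay nearer to this motif than to others was not tested. The distance between the middle of the match and the summit was 27 to 64 bp in Tars, 24 to 113 bp in Iars, 60 to 64 bp for the match at base 10 of Aars and 181 to 185 bp for its match at -112, 94 to 122 bp in Gars and 84 to 210 bp in Yars, over the 6 libraries. At this start of Aars, 6064 bp inside the gene record, the fold was 14.3, 13.8 and 13.5 in NC-labelled against 14.2, 16.0 and 13.7 in siRNA-labelled libraries. It was higher than the fold of the leading gene-end peak of Aars in every library (8.10, 8.69 and 11.6 against 8.68, 12 and 10.3). Tars had folds of 9.91, 15.0 and 10.3 against 11.7, 11.6 and 11.3, Iars 9.58, 9.41 and 7.92 against 8.49, 9.30 and 8.58, and Yars 10.6, 10.4 and 7.86 against 9.62, 14.3 and 12.1. The groups overlapped at each of these genes.

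The comparison between the groups asked whether the peaks at synthetase genes differed in height between the libraries labelled as control and as knockdown. Of 44 union regions at member gene ends, 36 had a peak in all 6 libraries and were fitted together with all 29602 such regions, on log2(summit fragments + 0.5) centred on each library's median, with limma and Benjamini-Hochberg adjustment. None of the 36 passed an adjusted p of 0.05 (0.213% of all regions did, 0.122% higher in NC-labelled and 0.0912% higher in siRNA-labelled libraries), and 3 had an unadjusted p under 0.05 (11.2% of all regions). Values are NC-labelled minus siRNA-labelled. The median difference was -0.0087 over the 36 and -0.0015 over all regions, with 17 of the 36 above 0 and 19 below, from -0.65 to 0.32. The typical standard error was 0.16 on the log2 scale. Centred values of the groups did not overlap at 1 region higher in the NC-labelled libraries (7.88% of all regions) and at 4 regions higher in the siRNA-labelled libraries (7.89% of all regions). The median member region had 34 to 44 summit fragments per library.

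Farsa, the alpha subunit gene of cytosolic phenylalanyl-tRNA synthetase (chromosome 8, 84856712 to 84857454), had the largest difference. Its summit held 31, 38 and 29 fragments in NC-labelled against 36, 35 and 58 in siRNA-labelled libraries. Centred on each library, siRNA-labelled library 3 was highest and the groups did not overlap. The log2 difference was -0.65 (SE 0.17), with a limma adjusted p of 0.087, so it did not pass. The adjusted p ran from 0.041 to 0.48 over the alternatives, being under 0.05 with background scaling (0.041), with a replicate block (0.048) and without siRNA-labelled library 1 (0.044). Without siRNA-labelled library 3 the difference was -0.489 (limma adjusted p = 0.34), and with the deposited fold it was -0.471 (limma adjusted p = 0.48). Farsb, which codes for the partner subunit, had 51, 48 and 50 against 36, 47 and 35 fragments and a log2 difference of 0.05 (SE 0.16; limma adjusted p = 0.95).

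The region shared by Hars and Hars2 held 57, 58 and 36 against 45, 51 and 71 fragments, again highest in siRNA-labelled library 3. Its log2 difference was -0.44 (SE 0.16; limma adjusted p = 0.23). Rars2, the mitochondrial arginyl-tRNA synthetase gene (chromosome 4, 34614638 to 34615203), held 35, 35 and 36 against 29, 37 and 51, with a log2 difference of -0.40 (SE 0.17; limma adjusted p = 0.35). In the other direction Cars2, the mitochondrial cysteinyl-tRNA synthetase gene (chromosome 8, 11550097 to 11551022), held 75, 66 and 82 against 42, 48 and 63 fragments. The unscaled values of Cars2 did not overlap and the centred ones did, with a log2 difference of 0.26 (SE 0.14; limma adjusted p = 0.48). Cars, the cytosolic cysteinyl gene (chromosome 7, 143599437 to 143600523), held 25, 35 and 23 against 20, 16 and 17, with a log2 difference of 0.32 (SE 0.21; limma adjusted p = 0.60). Vars, the cytosolic valyl-tRNA synthetase gene (chromosome 17, 35000556 to 35001698), held 73, 84 and 69 against 46, 55 and 61, with a log2 difference of 0.19 (SE 0.13; limma adjusted p = 0.63). The difference was -0.244 for the Hars and Hars2 region without NC-labelled library 3 and -0.254 for Rars2 without siRNA-labelled library 3. It was 0.164 for Cars2 without NC-labelled library 3. For Cars it was 0.168 without NC-labelled library 2 and 0.495 without siRNA-labelled library 1. Without any scaling Cars2, Vars and the far end of Lars2 passed (limma adjusted p = 0.033, 0.048 and 0.011). That setting puts the lower coverage of the siRNA-labelled lists into every difference and moved the median of all regions to 0.29.

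The far-end peak of Lars2 had the most fragments and the most precise difference, 0.07 (SE 0.060; limma adjusted p = 0.73; 95% interval -0.053 to 0.19). The sign turned with background scaling (-0.035). Without siRNA-labelled library 1 the difference was 0.17 (limma adjusted p = 0.044, and 0.011 to 0.97 over the alternatives). At the start of Lars2 the difference was -0.09 (SE 0.19; limma adjusted p = 0.91). The peaks at the inner starts of Aars, Aars2, Eprs and Tars2, outside the gene-end windows, had log2 differences of 0.02, 0.16, -0.27 and -0.04 (SE 0.12, 0.19, 0.15 and 0.19; limma adjusted p = 0.97, 0.81, 0.53 and 0.97). The intervals of 33 of the 36 regions crossed 0, and the plot of differences shows those that did not at its low end.

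**Figure D4:**
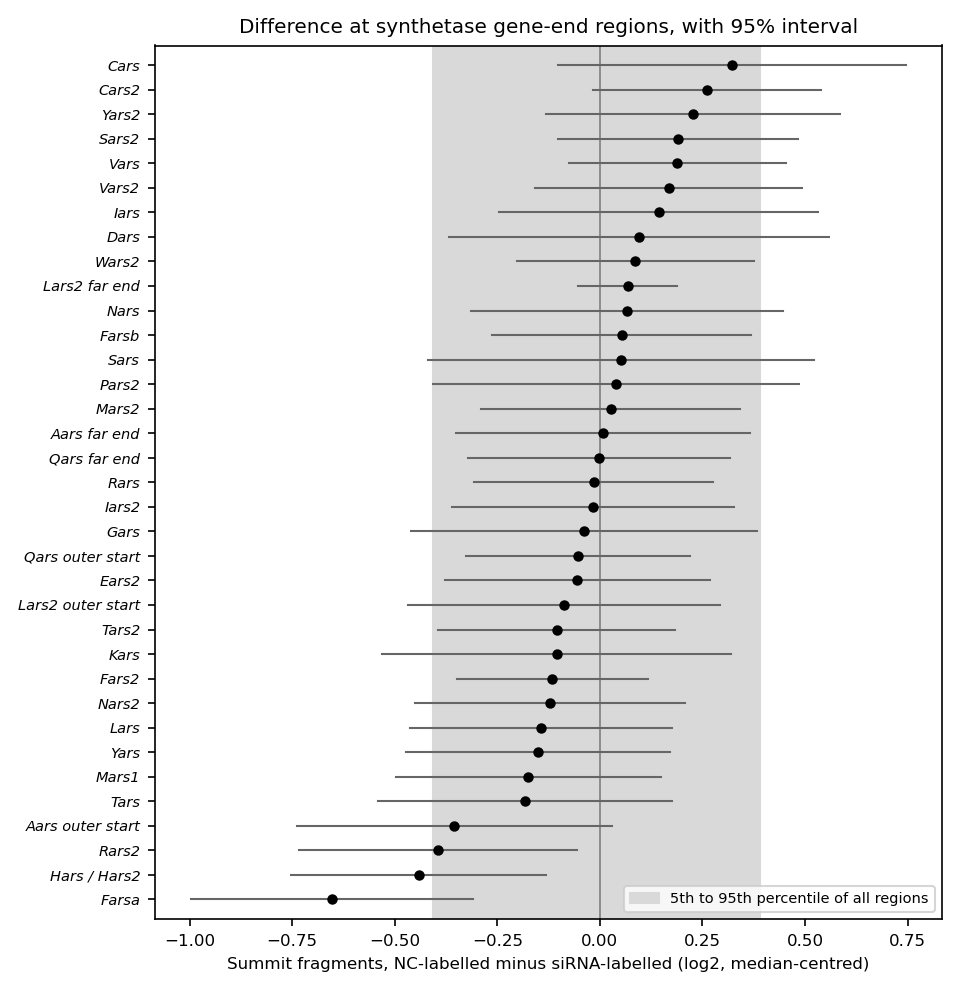
Difference in median-centred log2 summit fragments (NC-labelled minus siRNA-labelled, 3 libraries each) at 35 of the 36 synthetase gene-end regions, with 95% intervals from limma; the grey band spans the 5th to 95th percentile of all 29602 regions. The points run from -0.65 at Farsa to 0.32 at Cars, and none passed the adjusted p.

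Most other genes of the pathway had a peak as well, against 44.0% of all genes. All 3 scaffold genes of the complex (Aimp1, Aimp2, Eef1e1) had a gene-end peak in all 6 libraries, as did 6 of 7 genes of aminoacyl-tRNA delivery, 8 of 10 matched genes of proofreading and related steps and all 10 genes of the amino acid response, among them Atf4, Ddit3 and Asns. The exceptions were Eef1a2, the elongation factor gene of muscle and nerve (1 siRNA-labelled library), Sepsecs, which makes selenocysteinyl-tRNA (1 NC-labelled and 2 siRNA-labelled libraries), and Mtfmt, the mitochondrial formyltransferase gene (2 and 2). None of the 29 fitted regions of these lists passed (limma adjusted p), and 4 had an unadjusted p under 0.05; over all regions these shares were 0.213% and 11.2%. The smallest p was that of Asns, the asparagine synthetase gene, with 25, 31 and 28 against 32, 31 and 32 fragments and a log2 difference of -0.47 (SE 0.18; limma adjusted p = 0.29). Aarsd1, an alanyl-tRNA editing gene, held 23, 38 and 27 against 13, 16 and 21, with a log2 difference of 0.50 (SE 0.21; limma adjusted p = 0.34).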

How the data were processed

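The submitters' processing notes name Bowtie2, Picard, MACS2 and the build mm10; tool versions: not given in the sources used here. For every library the authors deposited 1 peak list, holding for each peak its interval, its summit, a score, the fold (a ratio to local background) and p- and q-values as −log10. From fold and p-value the whole fragments at the summit and the local background were solved (pseudocount 1, relative tolerance 0.002), for 100.0% of peaks; total reads were not used here. Gene ends came from the RefSeq table of GRCm38.p6, and strand and start sites from its promoter table. Overlapping peaks (1 bp or more) of the 6 lists formed union regions. Group differences were fitted with limma 3.58.1 in R 4.3.3 (trend, no block) over all regions with a peak in 6 libraries. The solver and the fit were tested on simulated data. The simulated fragments for the fit varied between libraries only by depth, by the changes put in and by counting noise. That test therefore cannot show how far the calls hold in these libraries. The score was not used. Between siRNA-labelled libraries 2 and 3 the chi-square per high region averaged 0.762, as low as the NC-labelled pairs (0.756 to 0.826), and 1.15 and 1.12 with library 1; only 0.570% of their intervals were identical, so all 6 were kept apart, and averaging them is an alternative. Alternatives covered windows, filters, scaling, pseudocount, block and leaving out each library. Members and lists were chosen with earlier results of these data known. Values per library are given for the 6 members with the highest and the 4 with the lowest leading peak, those with a peak in under 6 libraries, and the 3 with the smallest p in each direction; Aars, Tars, Iars, Yars and Tars2 were added after their values were seen. The values of 1 member are counted in the totals but not reported here.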

Additional observations from a re-analysis of the deposited data

How the results depend on the processing

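Of 139 values under another setting, 126 kept their side of the threshold or stayed close, 7 single-gene differences newly passed and 6 moved. The number of members with a peak in all 6 libraries was 34 (44.0% of all genes), 33 at 500 bp (40.6%), 36 at 2000 bp (48.1%), 27 at start sites (36.8%; only 27 members have a listed start), 33 with −log10 q of at least 5 (39.0%), 34 with equal lists (42.9%) and 34 to 35 without a library; no setting gave a member with a peak in 1 group only. The number of regions that passed was 0, but 1 with background scaling (Farsa), 3 with no scaling and 1 with a replicate block (Farsa), and 0 to 2 without a library, the 2 (Farsa and the far end of Lars2) without siRNA-labelled library 1. The median difference was -0.0087, moved to -0.111 with background scaling and 0.284 with no scaling, and ran from -0.0346 to 0.0338 without a library; the medians of all regions moved alike (-0.104 and 0.291). Over all 29602 regions 63 passed, 108 with background scaling, 2975 with no scaling, 0 with the deposited fold, 18 with siRNA-labelled libraries 2 and 3 averaged, 118 with the replicate block, 9, 11 and 12 without NC-labelled libraries 1 to 3, and 335, 13 and 33 without siRNA-labelled libraries 1 to 3. The cause of these changes was not tested. Same-numbered libraries deviated together little (r = 0.041, 0.032 and -0.022 across regions), and 3 of the 6 libraries (NC-labelled 1, siRNA-labelled 1 and 2) correlated best with their own number. Such values cannot tell whether same-numbered libraries shared a culture or batch, since low fragment counts add noise to each deviation. Summits of 10 to 30 fragments, as at Sars, Gars and Dars, limit what can be seen there.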
